A study of Mus musculus with 10 samples.

Results

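A set of 9 genes best known from epithelia were followed in mouse muscle precursor cells that had received a mimic of the microRNA miR-27a-3p or a scrambled control sequence. They were Itgb4, Itga6, Lama3 and Lamb3 of the hemidesmosome and its laminin ligand, Pkp2, Pkp3 and Perp of the desmosome, and Slurp1 and Anxa8, which are expressed in stratified epithelia. The 9 genes had 12 of the 55681 non-control probes of the array, found by the gene name that the scanner files give, and 8 of the 9 entered the comparison of 13138 genes. Lama3 did not, because neither of its 2 probes was well above background in enough files. The genes were selected from the difference between mimic and scrambled cells in these same data. Their own differences are therefore given as a description with a standard error and no p-value. Counts of members past a threshold are description too, and tests are read only for other genes.

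The cells were C2C12, a mouse myoblast line that can be driven to form myotubes, kept in growth medium with serum and transfected with Lipofectamine 2000. One group received 150 nM of the miR-27a-3p mimic, a synthetic duplex that delivers the mature strand, and the other received 150 nM of a scrambled sequence. RNA was collected 72 h later at an estimated transfection efficiency of 60%, so each sample holds transfected and untransfected cells together. Labels name 6 mimic and 4 scrambled replicates, but the files looked like 2 scans each of 3 mimic and 2 scrambled arrays. The scans of an array were averaged, and n is 3 mimic and 2 scrambled arrays throughout. How array and transfection correspond is not settled by the files, so standard errors and p-values cover array-to-array spread, part of which may be technical.

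Hemidesmosomes anchor epithelial cells to the basement membrane. Integrin alpha6beta4, encoded by Itga6 and Itgb4, binds laminin-332 outside the cell and, through plectin and dystonin, the keratin network inside it. Desmosomes join neighbouring cells through desmosomal cadherins, whose tails bind plakoglobin and plakophilins and, through desmoplakin, keratins. Myoblasts use integrins that pair with beta1 to hold laminin, and cadherins of the classical type to hold each other.

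The mature microRNA, taken from RefSeq, is shown because its seed (bases 2 to 8, in capitals) is the stretch that pairs with target messages. The probe stretches that follow are what the reported values were measured with. Each is 30 bases of a probe sequence in the deposited files, and capitals mark the hexamer AATAAA, a polyadenylation signal, of which the Slurp1 probe holds overlapping copies. For Itga6 and Anxa8, which have 2 probes each, upstream means the probe at the lower coordinate.
mmu-miR-27a-3p: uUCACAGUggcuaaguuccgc
Itgb4: gccttttgttctgcacttAATAAAaggttt
Itga6 upstream: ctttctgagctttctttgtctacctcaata
Itga6 downstream: gagaatgagaacctgggaggtcttgttgtt
Lamb3: tgtatgaacacaaaacccAATAAAaatctt
Slurp1: gtccaccaagcttgtggaaAATAAAATAAA
Anxa8 upstream: gtataccgcccaccctagcattacctctga
Anxa8 downstream: atcctctgatcgtggtctccgagcctgaag
Perp: gaaaatttgggaatgcgtgtctctgaatac
Pkp2: tgagtgtgcaccggaggaacacctgagaaa
Pkp3: aagaggagctgatgccacaggacctctctc

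The hexamer AATAAA was found in 4 of the 12 member probes, read on the probe strand, and in 10.1% of all 55681 probes. The 3 of those 4 shown above belong to Itgb4, Lamb3 and Slurp1. The reverse complement of the seed, ACTGTGA, was in 0 of the 12 member probes and in 0.817% of all probes. The probes cover a small piece of each message, and the rest of the messages was not analysed here.

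Levels below are log2 of the background-subtracted probe signal relative to the 75th percentile of the same file, so that 0 is the level of that percentile. A probe was called well above background by the scanner software's own flag. Among the 8 members in the comparison, 5 were higher and 1 was lower in mimic cells past an adjusted p of 0.05 (limma with Benjamini-Hochberg adjustment). Over all genes tested the share was 5.15%, with 2.8% higher and 2.34% lower. Nothing is read from the members' count because that contrast chose them. Itgb4, Slurp1 and Perp also passed the filter on detection through mimic files alone. The arrays of the groups did not overlap for any of the 8 members, with mimic above scrambled for 6 and below for 2. Over all genes tested, arrays did not overlap for 45.6% (19.8% higher, 25.8% lower), and 25.3% had an unadjusted p under 0.05. The median difference over all genes was -0.05 (log2).

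**Figure D1:**
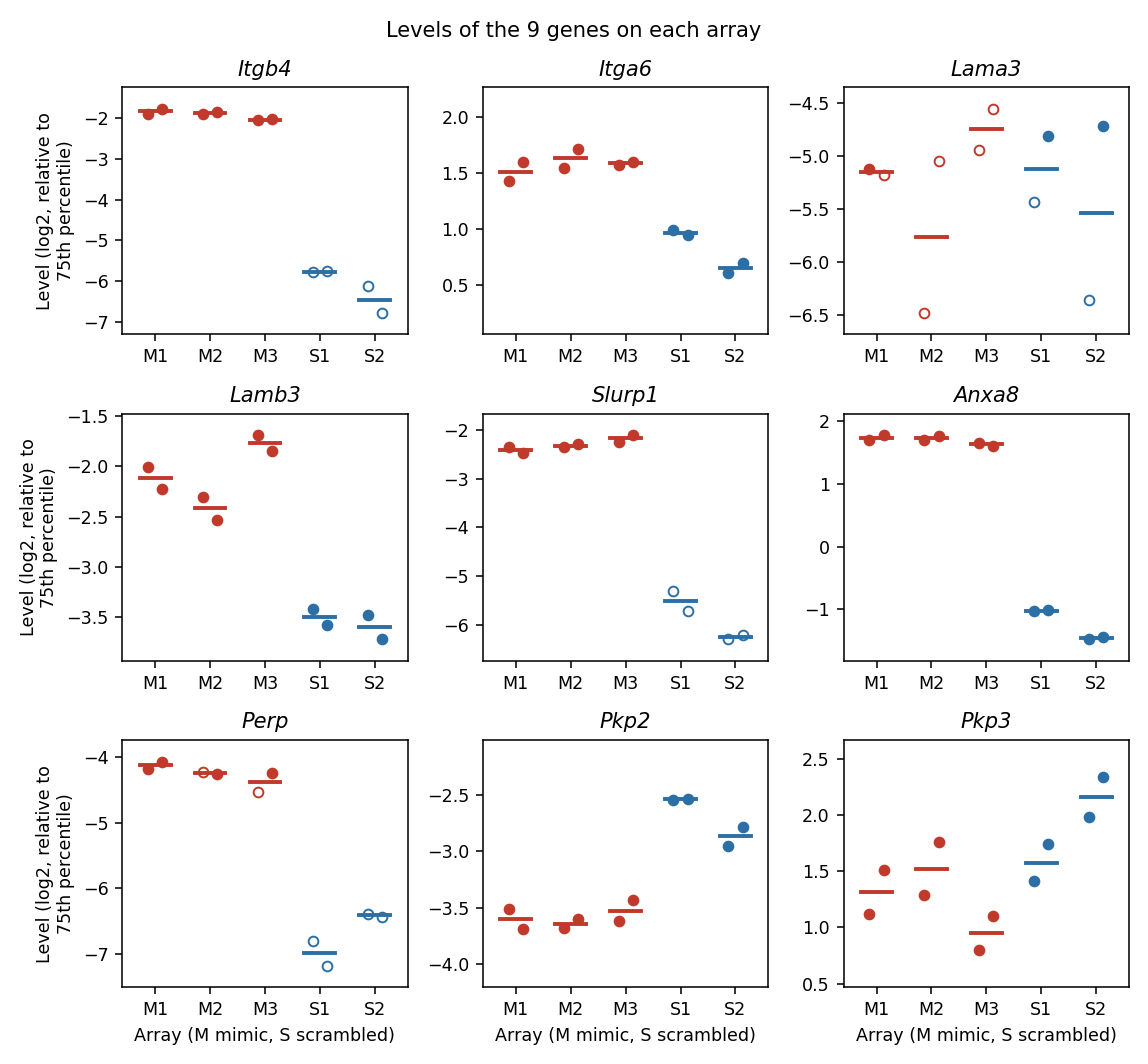
Level of each of the 9 genes on each array (log2 relative to the 75th percentile of the file), with M1 to M3 the mimic arrays and S1 and S2 the scrambled arrays. Points are the 2 scans of an array, filled where the probe was well above background, and bars are their mean. Itgb4 and Slurp1 have filled points on every mimic array and none on a scrambled array, Pkp2 and Pkp3 were lower on the mimic arrays, and Lama3 overlapped between the groups. The vertical scale differs between panels.

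Itgb4, the beta subunit found only in alpha6beta4, was well above background on mimic arrays alone. Its probe (mm9 chr11:115869666-115869725) read -1.84, -1.88 and -2.04 with the mimic and -5.77 and -6.45 with the scrambled sequence. Every mimic array lay above both scrambled arrays. The probe was well above background in 6 of 6 mimic files and 0 of 4 scrambled files, with signals of 587 to 886 intensity units against 17.4 to 48.8. Because the scrambled signal is below detection, the difference of 4.19 ± 0.23 (log2, SE) is not a measured fold change. Set against the lowest detected level instead, Itgb4 was 8.09-fold higher in mimic cells. This figure compares the mean mimic level with, on each scrambled array, the higher of the probe's own level and the lowest level of any probe well above background. It carries no error and is not a strict minimum, because a signal without the flag can lie above that lowest level. The differences within the first and the second scan were 4.01 and 4.38. With normexp background correction and an offset of 50, which compresses dim signals, the difference was 2.22.

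Itga6, the partner of beta4 and also a partner of beta1, gave opposite readings from its 2 probes. The downstream probe (mm9 chr2:71694756-71694815), which is the brighter of the pair and stands for the gene, read 1.51, 1.63 and 1.58 on mimic arrays and 0.97 and 0.65 on scrambled arrays. It was higher on every mimic array, by 0.76 ± 0.16 (log2, SE). The upstream probe (mm9 chr2:71690633-71690692) read -0.63, -0.69 and -0.73 on mimic arrays and -0.21 and -0.23 on scrambled arrays, so it was lower on every mimic array, by -0.46 ± 0.13. Both probes were well above background in all 10 files. Their starts lie 4123 bases apart, and the files assign the upstream probe to an Ensembl transcript and to cDNAs rather than to the RefSeq transcript of the downstream probe. The level of the downstream probe minus that of the upstream probe was 2.14, 2.32 and 2.32 on mimic arrays and 1.18 and 0.89 on scrambled arrays. The 2 probes therefore did not move together, and a single direction for Itga6 holds only for the stretch that the downstream probe covers.

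**Figure D2:**
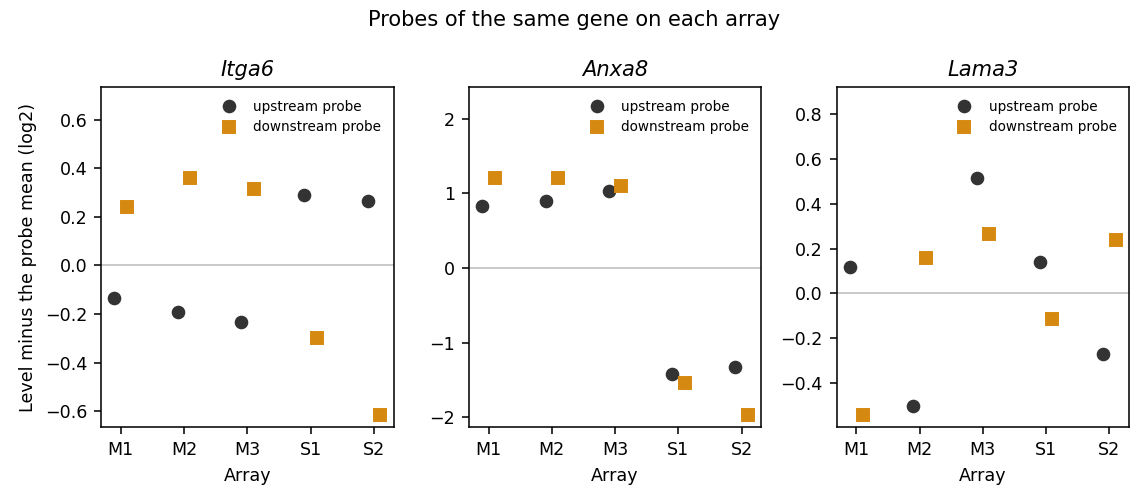
Level of each probe of Itga6, Anxa8 and Lama3 on each array, minus that probe's mean over the arrays (log2); M1 to M3 are mimic arrays and S1 and S2 scrambled arrays. The Itga6 probes lie on opposite sides of 0 on every array, both Anxa8 probes are above 0 on mimic arrays and below it on scrambled arrays, and the Lama3 probes, mostly below background, show no such separation.

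Lamb3 encodes the beta3 chain and Lama3 the alpha3 chain of laminin-332, the ligand of alpha6beta4 in the basement membrane. The Lamb3 probe (mm9 chr1:195170009-195170068) read -2.11, -2.42 and -1.77 on mimic arrays and -3.50 and -3.60 on scrambled arrays. All 10 files had it well above background, and every mimic array exceeded both scrambled arrays. The difference of 1.45 ± 0.22 (log2, SE), or 2.73-fold, was the 40th highest among the 10567 genes measured in all files, and it was 1.45 in each scan. Of the Lama3 probes, one was well above background in 1 mimic file and 2 scrambled files and the other in 0 files. The first read -5.15, -5.76 and -4.75 on mimic arrays against -5.12 and -5.53 on scrambled arrays, and the groups overlapped. The second read between -7.34 and -6.53 on mimic arrays and -6.91 and -6.56 on scrambled arrays. No difference in Lama3 was detectable at this signal.

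Perp, a tetraspan protein of the desmosomal membrane and a target of p53 and p63, was read by a dim probe (mm9 chr10:18576697-18576756). Its levels were -4.13, -4.25 and -4.39 on mimic arrays and -6.98 and -6.41 on scrambled arrays. The flag for signal well above background was present in 4 of 6 mimic files and 0 of 4 scrambled files. Perp was 1.60-fold higher in mimic cells, computed as for Itgb4 and not a strict minimum. In the first scan its signal lacked the flag at -4.23 on mimic array 2 and -4.53 on mimic array 3. The lowest levels with the flag in those files were -4.491 and -4.775. The fitted difference of 2.44 ± 0.21 (log2, SE) was 0.85 with normexp correction. The signal, 111 to 181 intensity units against 15.6 to 26.2, was near the limit of detection in mimic cells and below it in scrambled cells.

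Pkp2 and Pkp3 encode plakophilins, armadillo-repeat proteins that hold desmosomal plaques together, and both read lower on mimic arrays. Pkp2, also a plaque protein of cardiac cell junctions, was measured at mm9 chr16:16272648-16272707 and read -3.60, -3.64 and -3.53 on mimic arrays against -2.54 and -2.86 on scrambled arrays. Both scrambled arrays lay above every mimic array, all 10 files were above background, and the difference was -0.89 ± 0.16 (log2, SE). The scans gave -0.86 and -0.92. Pkp3 (mm9 chr7:148276140-148276199), which binds the broadest set of desmosomal cadherins, read 1.31, 1.52 and 0.95 on mimic arrays and 1.58 and 2.16 on scrambled arrays. Its difference was -0.61 ± 0.25, but the highest mimic array and the lowest scrambled array were 0.05 apart, close to touching. Leaving out 1 array at a time moved the Pkp3 difference between -0.90 and -0.32, the latter without the second scrambled array.

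Slurp1 is a small secreted protein of the Ly6 and uPAR family that keratinocytes release and that acts on nicotinic acetylcholine receptors. Its probe (mm9 chr15:74557085-74557144) read -2.41, -2.32 and -2.17 on mimic arrays and -5.51 and -6.26 on scrambled arrays. As with Itgb4, all 6 mimic files and 0 of 4 scrambled files were well above background, at 435 to 681 against 25.8 to 67.7 intensity units. Slurp1 was 6.21-fold higher in mimic cells, computed as for Itgb4 and not a strict minimum. The difference of 3.59 ± 0.24 (log2, SE) was 1.71 with normexp correction.

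Anxa8, a calcium-dependent phospholipid-binding protein of the annexin family, was well above background in all 10 files with both of its probes. The downstream probe (mm9 chr14:34913661-34913720), printed on 10 spots, read 1.73, 1.73 and 1.62 on mimic arrays and -1.02 and -1.46 on scrambled arrays. Its signal ran from 7181 to 10668 intensity units on mimic arrays and from 709 to 1313 on scrambled arrays, with no overlap. The difference was 2.93 ± 0.18 (log2, SE), or 7.62-fold, the 3rd highest of the 10567 genes measured in all files, and it was 2.93 in each scan. The upstream probe (mm9 chr14:34913148-34913207), whose start lies 513 bases away, read -1.30, -1.25 and -1.10 against -3.56 and -3.47. It was higher by 2.30 ± 0.14, or 4.92-fold, so the probes shared a direction and differed in size.

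**Figure D3:**
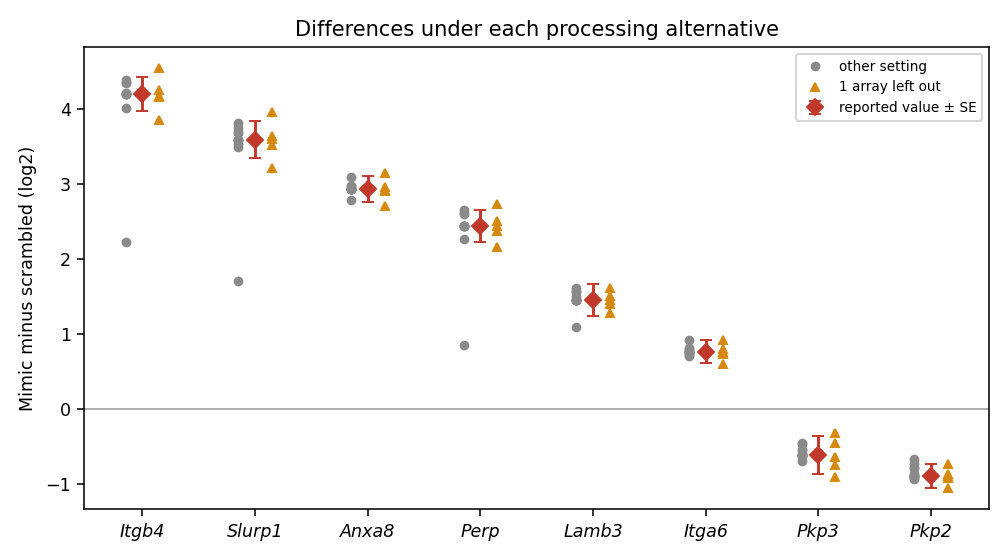
Difference between mimic and scrambled cells (log2) for the 8 members in the comparison. Diamonds are the reported values with their standard errors, circles are other processing settings, and triangles leave out 1 array. All values are from the probe that stands for the gene, and all kept the sign of the reported one. The low circles for Itgb4 (2.22), Slurp1 (1.71) and Perp (0.85) are those of normexp background correction.

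No other hemidesmosome gene passed the threshold. Of the 7 other genes listed for it, 6 were tested, 3 with a positive and 3 with a negative difference, and 0 passed the threshold in limma, with 2 at an unadjusted p under 0.05. The linker genes Plec and Dst, which tie beta4 to the cytoskeleton, differed by 0.07 ± 0.33 (adjusted p 0.906) and -0.49 ± 0.18 (adjusted p 0.158). The sign for Plec turned in the first scan alone (-0.026) and without the first scrambled array (-0.46). The tetraspanin Cd151, a partner of laminin-binding integrins, differed by 0.24 ± 0.15 (adjusted p 0.356). Col17a1, the transmembrane collagen of the hemidesmosome, was above background in 0 of 10 files.

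Among the 24 other integrin subunits listed, 12 were tested and 1 passed. Itga10, a collagen-binding alpha subunit that pairs with beta1, read -2.14, -2.23 and -2.28 on mimic arrays and -4.22 and -4.50 on scrambled arrays. It rose by 2.15 ± 0.15 (log2, SE; limma adjusted p 0.0045), detected above background in 6 mimic files and 3 scrambled files. The call held in 15 of 16 alternatives, with adjusted p from 1.7e-07 to 0.063, and was lost without the filter on dim probes. Itgb1, the common beta subunit that both Itga6 and Itga10 can join, did not pass, with a difference of -0.55 ± 0.28 (adjusted p 0.267). Without the first scrambled array the Itgb1 difference was -1.01 and passed (adjusted p 0.014), and without the second it was -0.091 (adjusted p 0.686). Itgb3, of the vitronectin receptor, had a mean level of -1.12 on mimic and -2.23 on scrambled arrays, a difference of 1.11 ± 0.24 (adjusted p 0.061) that passed the threshold in 11 of 17 alternatives (adjusted p 0.0010 to 0.345). The laminin receptor subunit Itga3 differed by -0.26 ± 0.36 (adjusted p 0.670), and by 0.38 without the second scrambled array. Of the 9 other laminin chains, 6 were tested and 0 passed in limma, with 1 at an unadjusted p under 0.05.

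**Figure D4:**
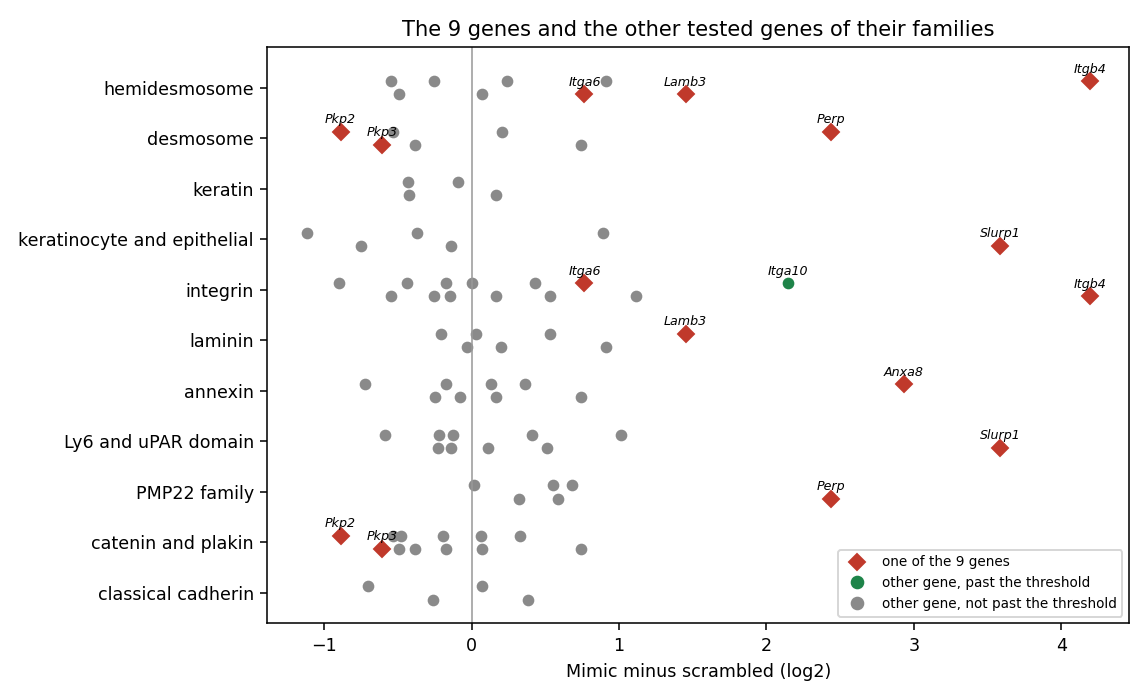
Difference between mimic and scrambled cells (log2) for the 9 genes (diamonds, 8 of them tested) and for the other tested genes of each list (circles, green where past an adjusted p of 0.05 in limma). Itga10 is the single green circle; the other listed genes lie between -1.12 and 1.11. A gene on more than 1 list appears in each.

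The desmosome was mostly undetected. Of 16 other desmosome genes, 11 were above background in 0 files, among them Dsp, Dsg2 and Dsc2, which encode desmoplakin and the desmosomal cadherins that are most widely expressed. The 4 tested were Pkp1, Pkp4, Jup and Cdsn, of which 0 passed in limma and 1 had an unadjusted p under 0.05. Pkp1, the plakophilin of the upper epidermis, read 1.42, 1.60 and 1.29 on mimic arrays and 0.86 and 0.54 on scrambled arrays. The Pkp1 difference of 0.74 ± 0.17 (adjusted p 0.071) thus had a sign opposite to those of Pkp2 and Pkp3, and Pkp4, a relative found mainly at adherens junctions, differed by -0.38 ± 0.26 (adjusted p 0.380). Jup, plakoglobin, was detected in 2 mimic files and 2 scrambled files and differed by -0.53 ± 0.55 (adjusted p 0.562), or by 0.30 without the second scrambled array.

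The families of the remaining members held no other call. The 11 other annexins gave 8 tested and 0 called (1 at an unadjusted p under 0.05, limma), with Anxa2, a membrane-bound annexin present in most cells, at 0.16 ± 0.14 (adjusted p 0.503). The 21 other genes of the Ly6 and uPAR family gave 9 tested and 0 called (2 at an unadjusted p under 0.05). Slurp2, the close relative of Slurp1, was detected in 3 mimic files and 2 scrambled files and differed by -0.14 ± 0.15 (adjusted p 0.586), a sign that turned under 4 of 16 alternatives. The 6 other genes of the PMP22 family, to which Perp belongs, gave 5 tested and 0 called (3 at an unadjusted p under 0.05). Their median difference was 0.55, and Emp1 (0.68 ± 0.16, adjusted p 0.072) and Pmp22 (0.55 ± 0.14, adjusted p 0.090) were examples chosen after their values were seen.

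Most keratins and other keratinocyte genes were undetected in both groups. Krt5 and Krt14, the pair of basal keratinocytes, and Krt8 and Krt18, the pair of simple epithelia, were above background in 0 of 10 files. Of 18 keratins, 11 were above background in no file and 4 were tested, with 0 called and 0 at an unadjusted p under 0.05 (limma). Krt16, Krt19 and Krt80 were detected in every file and differed by 0.17 ± 0.14, -0.43 ± 0.19 and -0.43 ± 0.36, the last of which was 0.20 without the second scrambled array. Of 35 other keratinocyte and epithelial genes, 26 were above background in no file, including Cdh1, Epcam, Ivl, Lor and Flg, and 5 were tested with 0 called (3 at an unadjusted p under 0.05). Trp63, the transcription factor that specifies stratified epithelium, has 4 probes, and values are given for the 1 that stands for the gene. By that probe Trp63 was detected in all 10 files and differed by -0.37 ± 0.18 (adjusted p 0.252). The 3 at an unadjusted p under 0.05 differed in sign. Sprr1a, a precursor of the cornified envelope, differed by 0.89 ± 0.22 (adjusted p 0.082). The transcription factors Klf5 and Ovol2 differed by -1.12 ± 0.39 (adjusted p 0.151) and -0.75 ± 0.23 (adjusted p 0.120). Leaving out 1 array at a time moved Sprr1a between 0.57 and 1.21, Klf5 between -1.815 and -0.43 and Ovol2 between -1.08 and -0.42.

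**Figure D5:**
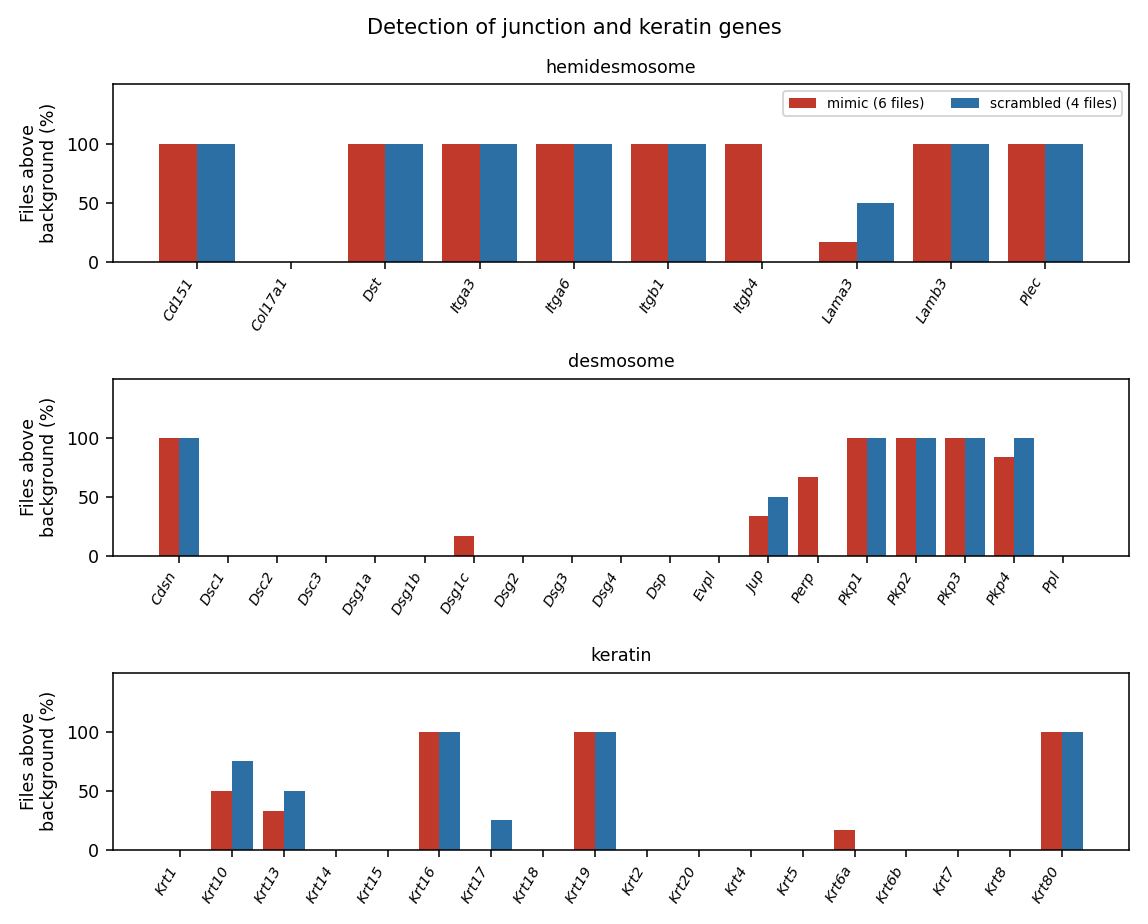
Share of files (%) in which hemidesmosome, desmosome and keratin genes were well above background, with red bars for the 6 mimic files and blue bars for the 4 scrambled files; a missing bar is 0. Itgb4 and Perp are detected in mimic files and in 0 scrambled files, whereas Col17a1, Dsp, Krt5, Krt14, Krt8 and Krt18 have no bar in either group.

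Over all of these lists, 64 of 157 other genes were tested and 1 passed, which is 1.56% beside the 5.15% of all genes. The tested genes split into 32 positive and 32 negative differences with a median of 0.01, and 18 had an unadjusted p under 0.05. The count of calls was 1 without any 1 of the mimic arrays, 27 without the first scrambled array and 6 without the second.

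Marker genes of other cell types were summed on the linear scale, on which the 75th percentile equals 1. The 18 keratins summed to 0.691 to 0.783 on mimic arrays and 0.721 to 1.01 on scrambled arrays, and the 35 keratinocyte and epithelial genes to 2.02 to 2.19 and 2.46 to 3.47. The keratin sums overlapped between the groups, and the keratinocyte sums were lower on every mimic array. The keratinocyte sums rest mostly on Ovol2 and Trp63, the brightest genes of that list, which differed by -0.75 and -0.37 and did not pass the threshold. Of the 5 tested, 4 differences were negative and 1 was positive, and 26 of the 35 were above background in no file. Krt5, Krt14, Cdh1 and Epcam were below background in all files, whereas Trp63, Krt16, Krt19 and Krt80 were above it in all 10. Endothelial markers summed to 0.209 to 0.273 and 0.214 to 0.231, with 6 of 7 above background in no file, and immune markers to 1.02 to 1.19 and 1.15 to 1.29, with 3 of 7 in no file. The 8 fibroblast markers summed to 30.9 to 33.3 on mimic arrays and 25.8 to 28.4 on scrambled arrays. These sums rest mostly on the brightest genes, Col1a2, Col3a1 and Dcn, which did not pass the threshold. The mean log2 level of the 6 tested overlapped between the groups, at 0.29 to 0.40 on mimic and 0.50 and 0.05 on scrambled arrays. Of the 6 tested, 5 had a positive difference and 1, Pdgfra, a negative one. Pdgfra alone passed the test, falling by 0.96 (limma adjusted p 0.030) with 1 mimic file and 3 scrambled files above background. The Pdgfra call held in 6 of 16 alternatives (adjusted p 0.00028 to 0.657), and its value was 1.28 in the deposited value table.

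Of 12 myoblast markers, 10 were detected widely enough to be tested, and Pax7, the satellite cell factor, was above background in 0 files. The 12 myoblast markers summed to 29.6 to 32.4 on mimic arrays and 41.6 to 52.8 on scrambled arrays. Among those that fell in limma were Myog, which drives differentiation, by 2.10 (adjusted p 0.0092), and Mymk, needed for fusion, by 2.44 (adjusted p 0.013). These calls held in 14 and 13 of 17 alternatives, with adjusted p up to 0.087 and 0.099. Both were lost without the filter on dim probes and without the first or the second mimic array, and that of Mymk also without the third. The part of the myoblast and fibroblast markers in the levels of Itgb4, Slurp1, Anxa8 and the others was not tested. In RNA from a whole dish, fewer cells expressing a gene and less RNA of it per cell cannot be told apart.

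Genes whose pattern over the 5 arrays was nearest to that of Itgb4 were sought among all tested genes, as the smallest root mean square difference of levels after centring each gene. These were Scara5 (0.30), Slurp1 (0.33), Prl2c5 (0.43), Tmem45a (0.59) and Mgll (0.62), all in log2 units. For Anxa8 the nearest were Tmem184a (0.11), Cd200r4 (0.16), Tmem45a (0.17), Prl2c1 (0.20) and Platr26 (0.22). Itgb4 and Anxa8 were chosen from their difference between mimic and scrambled cells, and this measure mostly reflects the size of that difference. The nearest genes differed by 3.03 to 3.90 (Itgb4 4.19) and by 2.84 to 3.08 (Anxa8 2.93). Slurp1 is itself a member. The likeness is therefore description only, and no pattern beyond that difference is read from it. Itgb4 was above background in 0 of 4 scrambled files, so on scrambled arrays every likeness to it is to undetected signal. Scara5, Slurp1, Tmem184a, Cd200r4 and Platr26 were also above background in 0 of 4 scrambled files. The likeness of Tmem184a, Cd200r4 and Platr26 to Anxa8 on those arrays therefore rests on undetected signal too.

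Promoters are described for 2 of the 9 genes, Lamb3 and Anxa8, both of which were higher on the mimic arrays. Promoters of the other members were not examined. RefSeq gives 2 starts for Lamb3, and the 250 bases before its first start and before the Anxa8 start are shown (GRCm38.p6, plus strand), with capitals marking CACCC and its reverse complement GGGTG, a motif bound by Kruppel-like factors.
Lamb3, chr1:193301744-193301993: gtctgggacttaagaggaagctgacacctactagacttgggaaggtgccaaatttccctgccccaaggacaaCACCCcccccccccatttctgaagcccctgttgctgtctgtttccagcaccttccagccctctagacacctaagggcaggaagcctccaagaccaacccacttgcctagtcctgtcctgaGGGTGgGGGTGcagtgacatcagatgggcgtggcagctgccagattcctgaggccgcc
Anxa8, chr14:34085729-34085978: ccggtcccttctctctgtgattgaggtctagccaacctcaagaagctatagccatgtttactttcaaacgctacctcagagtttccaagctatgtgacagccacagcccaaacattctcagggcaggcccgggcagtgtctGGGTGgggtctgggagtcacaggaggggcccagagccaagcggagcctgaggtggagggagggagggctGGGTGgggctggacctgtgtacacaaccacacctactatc

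Searched on both strands, CACCC occurred 3 times in the Lamb3 window shown, 3 times in the window before its second start (chr1:193301993-193302242) and 2 times in the Anxa8 window, and 52.0% of 32851 promoters of that length hold it. The E-box CANNTG, to which MyoD-family factors bind, occurred 3 times in the Lamb3 window shown, 1 time in the other and 0 times in that of Anxa8, against 66.2% of promoters with at least 1. The AP-1 motif TGANTCA (6.75% of promoters), the Sp1 motif GGGCGG (32.7%) and the TATA box TATAAA (12.4%) were in none of these windows. These matches are a description of letters and say nothing of binding.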

How the data were processed

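Total RNA was measured on 1-colour Agilent arrays (Cy3) on 1 slide. The deposited intensity per spot is the authors' scanner output, extracted with Agilent Feature Extraction, version 12.0.0.7 per the file headers and 10.7.3.1 per the submitters' processing notes; probe positions are mm9 per the file headers. Shared non-uniform spots (24 to 81 in same-position pairs of files, 0 to 1 in the 40 other pairs) showed 5 array positions scanned 2 times each. In each file 27.0 to 35.3% of 59305 spots were well above background, and 0 were saturated. The small number of arrays limits precision.

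The processed signal, already background-subtracted and detrended, was log2-transformed and scaled to each file's 75th percentile over the 13029 probes above background in all 10 files. Probes above background in at least 4 of 10 files were kept (16786 of 55681), with the brightest probe per gene. The fit used limma 3.58.1 (R 4.3.3) with Benjamini-Hochberg adjustment over 13138 genes at 0.05. On simulated data of 13138 genes, 68% of changes of size 1 (log2) and 88% of size 2 were recovered, with 11 false calls. All simulated arrays took their spread from the mimic arrays. The spread of the scrambled arrays was not simulated, so these figures do not give the recovery or false calls in the data themselves. Over all genes 368 rose and 308 fell.

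The members and lists were chosen with earlier results of these data known. Named genes were the members, listed genes past the threshold, binding partners of members, and the 5 genes most alike in pattern to Itgb4 and to Anxa8. Itgb3, Emp1, Pmp22, Slurp2, Anxa2, Sprr1a, Krt16, Krt19, Krt80, Klf5, Ovol2 and genes named at 0 were chosen after their values were seen. Some listed genes that the rule would name are not reported here. Alternatives covered replicates, scans, scaling, background correction, the deposited value table (linear intensity with equal column maxima and dim probes left empty, by steps of the authors not given in the sources used here), filters and single arrays.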

Additional observations from a re-analysis of the deposited data

How the results depend on the processing

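The sign of each of the 8 members held under every alternative that gave it a value (15 to 17 each). These values come from the probe that stands for the gene, so the opposite reading of the upstream Itga6 probe (-0.46) did not enter. The lower call among the members, Pkp2, was lost in the first scan alone and with quantile normalisation, each leaving 5 members past the threshold. It was also lost with the percentile over all probes, with normexp, in the deposited value table and without the filter on dim probes. Over all genes, the 676 calls became 4512 with the 10 files as separate arrays, 1459 with scan as a block and array position as a random block, 17 without the filter on dim probes, and 47, 79 and 138 without mimic array 1, 2 or 3 and 4352 without scrambled array 1 (a lone scrambled array is assumed to vary like the mimic arrays). The 368 higher and 308 lower calls became 503 and 234 with the percentile over all probes (median of all genes then 0.11), 422 and 244 after quantile normalisation, and 393 and 230 from the deposited value table. The count of listed other genes, 1 as reported, was 24, 11 and 0 under those first 3 settings, 2 in the first scan alone, 4 with the percentile over all probes, 3 each with quantile normalisation, normexp, the value table and a filter of all 10 files, and 1 to 27 without 1 array. The count of members past the threshold, 6 as reported, was 3 of the 6 with a value in the deposited value table (Itgb4 and Perp had none), 3 of 9 without the filter, and 4 to 7 without 1 array. Same-numbered samples did not deviate together (correlations 0.36, -0.09, -0.47 and -0.10), and with the replicate number as a block the calls were 1950 over all genes, 13 in the lists and 8 among members. Signs turned for Plec (-0.026 in the first scan, -0.46 without the first scrambled array), Slurp2 (0.13 in the first scan, 0.019 with the percentile over all probes, 0.050 with quantile normalisation and 0.057 in that value table), Pdgfra (1.28 in the same table) and, without the second scrambled array, Itga3 (0.38), Jup (0.30) and Krt80 (0.20). Causes of these shifts were not tested. The 2 scrambled arrays and the background signal of Itgb4, Slurp1, Perp and Lama3 limit what can be said of them.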

Other observations

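The genes beside the 9 members on the chromosome, in RefSeq order, were looked at after the members. Of 18 neighbours 12 were tested, with a median difference of 0.55 (log2) against -0.05 over all genes, and 2 passed in limma against 5.15% of all genes, 1 on each side of Lama3, whose own probes were at background. Ankrd29 rose by 1.35 ± 0.19 (adjusted p 0.019), detected in 6 mimic files and 2 scrambled files, and the call held in 11 of 16 alternatives (adjusted p 3.1e-05 to 0.176). Ttc39c rose by 0.75 ± 0.15 (adjusted p 0.048) and held in 10 of 17 alternatives (0.00047 to 0.429). The neighbours of Itgb4, Sap30bp and Galk1, differed by 0.13 (adjusted p 0.606) and 0.01 (adjusted p 0.970). Those of Lamb3, G0s2 and Camk1g, differed by -0.44 and -0.06, neither past the threshold. Among the others not past it, Dlx2 before Itga6 differed by 0.83 (adjusted p 0.051) and Pdk1 after it by 0.61 (adjusted p 0.257). Spidr before Pkp2 differed by 0.97 (adjusted p 0.165) and Yars2 after it by -0.42 (adjusted p 0.240). Antxrl before Anxa8 differed by 0.57 (adjusted p 0.165) and Tnfaip3 after Perp by 0.52 (adjusted p 0.198).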
